A study of Mus musculus with 4 samples.

Results

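The Kruppel-like factors are zinc finger transcription factors, and 10 of them, Klf2, Klf3, Klf4, Klf5, Klf6, Klf7, Klf9, Klf10, Klf11 and Klf13, are described here in sorted mouse melanoma cells. The members were chosen by name, with earlier results of these data known. All 10 had a probe on the array, 1 probe each with 1 spot per array, among 20832 genes with a named probe. The cells were B16-F10, a metastatic mouse melanoma line grown with serum, which were separated by flow cytometry into cells with little Met on the surface (Met-low) and cells with much Met (Met-high). Met is the receptor for hepatocyte growth factor. The sorted populations were kept apart in culture for 3 days. RNA was then taken from 2 samples per population, prepared independently, and each sample was measured on an Agilent mouse array of its own with a single dye, Cy3. Both populations came from the same line, with no added transgene or drug, and surface Met at the time of RNA preparation was not analysed here. With 2 arrays against 2, the number of arrays limits the precision.

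As background, all of these proteins bind GC-rich DNA, in particular CACCC and GC boxes, through a triplet of zinc fingers at the carboxy terminus, and they differ in the amino-terminal part that recruits cofactors. Klf2, Klf4, Klf5, Klf6 and Klf7 are usually grouped as factors that can recruit acetyltransferases and activate transcription. Klf3 recruits the corepressor CtBP, and Klf9, Klf10, Klf11 and Klf13 recruit the corepressor Sin3. Many members are induced within hours by serum, growth factors, steroid hormones or shear stress, and in skin Klf4 is best known for its part in building the epidermal barrier.

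The 250 bases before the annotated start are shown for the 4 members with the largest difference between the populations, because these stretches hold the kinds of box that Kruppel-like factors themselves bind. They are RefSeq sequences of the mouse build GRCm38.p6, read 5′ to 3′ on the strand of the gene, and 8 of the 10 members matched an entry. Capitals mark matches on either strand to the CACCC box (CACCC), the GC box (GGGCGG), the E-box (CACGTG) and the MEF2 consensus, and adjoining or overlapping matches form a single run of capitals.
Klf2, chr8:72318812-72319061, plus strand: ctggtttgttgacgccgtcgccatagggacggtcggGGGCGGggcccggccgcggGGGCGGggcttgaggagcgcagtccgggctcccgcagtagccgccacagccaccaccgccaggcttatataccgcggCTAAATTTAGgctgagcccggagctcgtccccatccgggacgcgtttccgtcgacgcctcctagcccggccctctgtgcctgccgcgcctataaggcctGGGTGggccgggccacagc
Klf4, chr4:55532476-55532725, minus strand: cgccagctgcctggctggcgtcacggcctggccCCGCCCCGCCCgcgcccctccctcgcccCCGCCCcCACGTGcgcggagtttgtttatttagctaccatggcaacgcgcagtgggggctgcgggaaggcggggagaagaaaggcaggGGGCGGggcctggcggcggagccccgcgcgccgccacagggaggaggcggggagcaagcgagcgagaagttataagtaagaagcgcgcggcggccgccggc
Klf7, chr1:64121390-64121639, minus strand: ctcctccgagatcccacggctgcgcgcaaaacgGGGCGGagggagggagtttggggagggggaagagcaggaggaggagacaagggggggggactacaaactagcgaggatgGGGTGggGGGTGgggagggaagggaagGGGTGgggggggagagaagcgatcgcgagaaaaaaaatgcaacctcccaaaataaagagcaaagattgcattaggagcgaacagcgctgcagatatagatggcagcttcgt
Klf9, chr19:23140976-23141225, plus strand: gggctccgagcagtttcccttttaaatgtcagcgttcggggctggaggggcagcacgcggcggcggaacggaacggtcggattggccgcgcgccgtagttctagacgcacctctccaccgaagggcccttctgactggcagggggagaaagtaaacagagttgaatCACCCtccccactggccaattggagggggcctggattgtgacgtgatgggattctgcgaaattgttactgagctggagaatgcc

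In these windows the CACCC box was found once for Klf2, with its first base 19 bases before the start, once for Klf9, 84 bases before it, and 3 times for Klf7, between 138 and 111 bases before it. Klf4 had 0 CACCC boxes and 4 GC boxes, between 217 and 101 bases before the start, and an E-box 182 bases before it. Klf2 was the 1 member of 8 with a match to the MEF2 consensus, the letters of the element through which the kinase Erk5 is known to act, with its first base 118 bases before the start. Over the 8 members, 5 held a CACCC box, against 52.0% of all 32851 promoter windows, 7 held a GC box, against 32.7%, and 3 held the E-box, against 6.02%. A match to MEF2 was found in 2.92% of all windows, a CCAAT box (CCAAT) in 4 of the 8 members and 33.8% of all windows, and a TATA box (TATAAA) in 0 of the 8 and 12.4% of all windows. The 8 windows were rich in G and C, 59.2% to 78.4%, against a median of 52.4% over all windows. A match is a description of letters and shows no binding.

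The 75th percentile of intensity lay between 858 and 1331 on the 4 arrays, 50.01% to 53.6% of 43020 spots were well above background, and 0 spots were saturated. Melanocyte markers such as Mitf, Sox10 and Tyr were detected on every array, 8 of 8. Of these, 0 were called between the populations, against 3.78% of all genes called lower in Met-high cells and 1.91% higher. At these shares 0 calls among 8 genes may well occur. Of 8 markers of other skin cells with a probe, 1 to 3 were well above background on an array. Met itself, the basis of the sort, had log2 signals (relative to the 75th percentile of the array) of -0.26 and -0.89 in Met-low and of 1.03 and -0.43 in Met-high samples. The populations thus overlapped in Met mRNA, with a log2 ratio of 0.87 ± 0.51 (SE) and a limma adjusted p of 0.332, and Met-high replicate 2 lay below Met-low replicate 1. For each detected Kruppel-like factor the log2 ratio is therefore also given without Met-high replicate 2.

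Klf4, Klf9 and Klf7 were lower in the Met-high population, and the other 5 detected members did not pass the test. Of the 10 members, 8 were well above background on all 4 arrays, and all 8 had a lower mean in Met-high cells. In the limma fit over 11943 genes, 3 of them fell (Klf4, Klf9 and Klf7, Benjamini-Hochberg adjusted p under 0.05) and 0 rose, and Klf4 and Klf9 fell by more than 2-fold. Klf5 and Klf11 were not detected on 3 of the 4 arrays and were not tested. In RNA from a whole population of cells, fewer cells that express a gene and less RNA per cell cannot be told apart.

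Across all genes tested, 3.78% (451) were called lower and 1.91% (228) higher in Met-high cells. These counts were 592 and 138 with each array scaled to the percentile of the detected probes only. Without a test, 5.28% of genes were more than 2-fold lower, against 2 of the 8 detected members, and 2.40% were more than 2-fold higher, against 0 members. Both Met-high arrays lay below both Met-low arrays for 7 of the 8 members, which was so for 22.6% of all genes, and above them for 0 members, which was so for 35.7%. A lower mean in Met-high cells was seen for 40.5% of all genes. The median log2 ratio, Met-high minus Met-low, was -0.83 over the 8 members and 0.10 over all genes.

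**Figure D1:**
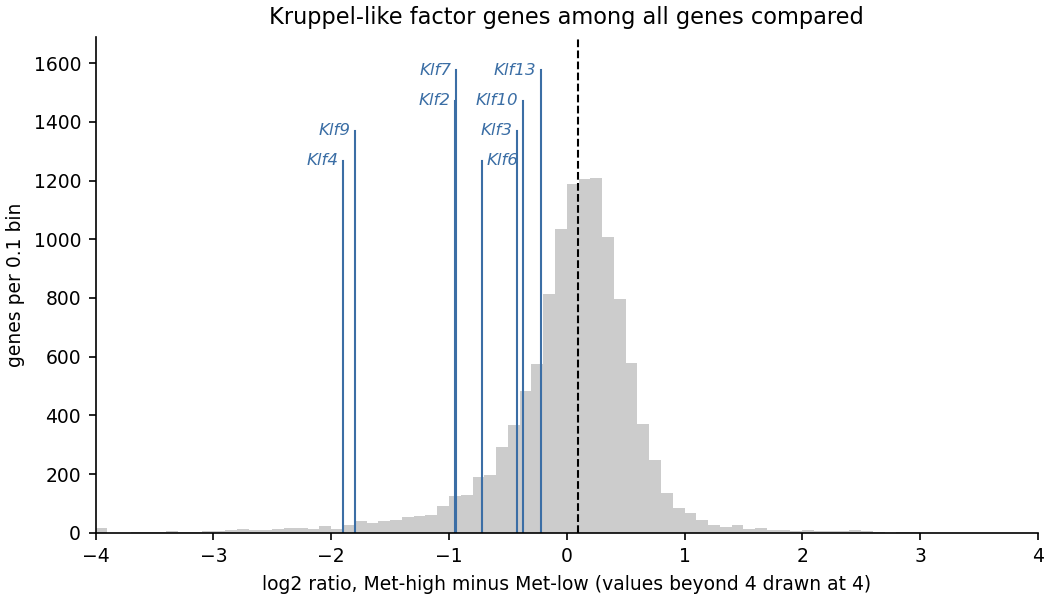
Log2 ratio of Met-high minus Met-low cells for all 11943 genes compared (grey bars, genes per bin of 0.1), with the 8 detected Kruppel-like factors as blue lines and the median of all genes, 0.10, as a dashed line. All 8 members lie left of 0, from -1.90 for Klf4 to -0.22 for Klf13.

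Among the members usually grouped as activators, Klf4 had the largest difference. Klf4 drives epidermal differentiation and the cell cycle inhibitor p21, and it is also one of the factors used to reprogram cells to pluripotency. Its background-corrected intensity was 355 and 414 in the Met-low samples and 101 and 79.3 in the Met-high samples. Both Met-low samples were far above both Met-high samples, and the Met-high samples lay farther apart from each other than the Met-low samples did. On the log2 scale relative to the 75th percentile, the Met-low mean was -1.55 ± 0.20 and the Met-high mean -3.45 ± 0.51 (SD, n = 2 arrays each). Klf4 thus fell by 3.73-fold, a log2 ratio of -1.90 ± 0.28 (SE, 95% interval -2.61 to -1.19, limma adjusted p = 0.0276). Without Met-high replicate 2 the ratio was -1.54 (limma adjusted p = 0.0240), and without Met-low replicate 1 it was -1.76 and no longer passed (limma adjusted p = 0.0520). With a normexp background correction it was -1.26.

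Klf2, which keeps endothelial cells and naive T cells quiescent, is the closest relative of Klf4 in function in blood vessels. Its intensity was 447 and 471 in the Met-low samples and 194 and 222 in the Met-high samples. The populations did not overlap, with a gap of 0.65 between the nearest Met-low and Met-high log2 signals against a difference of 0.42 between the Met-low arrays. The log2 ratio was -0.95 ± 0.21 (SE, 95% interval -1.47 to -0.42), and it did not pass the test (limma adjusted p = 0.0652). Without Met-high replicate 2 it was -0.86 (limma adjusted p = 0.189).

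Klf7, which is needed for the development of sensory neurons, had intensities of 995 and 1401 in Met-low and of 488 and 590 in Met-high samples. Once each array was scaled, the Met-low samples were nearly equal, with log2 signals of 0.08 and 0.07, and the Met-high samples lay close together at -0.81 and -0.91. Klf7 fell by 1.92-fold, a log2 ratio of -0.94 ± 0.15 (SE, 95% interval -1.33 to -0.55, limma adjusted p = 0.0351). Without Met-high replicate 2 the ratio was -0.89 (limma adjusted p = 0.123). With only 1 array left out, whichever it was, the ratio stayed between -0.99 and -0.89, but the gene no longer passed (limma adjusted p between 0.0698 and 0.131).

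Klf6, a widely expressed early response gene that can act as a tumour suppressor, was measured at 4652 and 6303 in Met-low and at 2978 and 2750 in Met-high samples. Both Met-high samples were the lower ones, and they differed from each other, with log2 signals of 1.79 and 1.31, more than the Met-low samples did, at 2.30 and 2.24. The log2 ratio was -0.72 ± 0.21 (SE, 95% interval -1.26 to -0.18), which did not pass the test (limma adjusted p = 0.118). Without Met-high replicate 2 it was -0.48 (limma adjusted p = 0.389).

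Klf5, which maintains proliferating epithelium, gave intensities of 14.2 and 44.2 in Met-low and of 23.1 and 27.1 in Met-high samples. Only Met-low replicate 2 was well above background, the Met-low samples lay on either side of the Met-high ones, and no fold is given.

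Among the members that recruit Sin3, Klf9 differed most. Klf9 is a target of glucocorticoid and thyroid hormone that restrains proliferation in several tissues. Its intensity was 179 and 231 in Met-low and 44.8 and 57.7 in Met-high samples. The error estimated for these Met-high values by the image software, Agilent Feature Extraction, was 7.14 and 8.27. The 4 arrays formed 2 tight pairs, with log2 signals of -2.40 and -2.53 against -4.26 and -4.27, and the Met-high signals, though dim, were flagged well above background. Klf9 fell by 3.48-fold, a log2 ratio of -1.80 ± 0.16 (SE, 95% interval -2.20 to -1.40, limma adjusted p = 0.00860). It passed whichever array was left out, with ratios from -1.86 to -1.74, and without Met-high replicate 2 the ratio was -1.80 (limma adjusted p = 0.0115). With a normexp background correction, which draws dim signals together, the ratio was -0.98.

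Klf10, an early target of TGF-beta, had intensities of 979 and 1450 in Met-low and of 704 and 917 in Met-high samples. The scaled log2 signals did not overlap, at 0.05 and 0.12 against -0.29 and -0.28, but the difference was small. The log2 ratio of -0.37 ± 0.15 (SE, 95% interval -0.76 to 0.02) did not pass the test (limma adjusted p = 0.203). It was -0.38 without Met-high replicate 2 (limma adjusted p = 0.497).

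Klf11, a close relative of Klf10, was measured at 17.5 and 80.2 in Met-low and at 26.3 and 17.1 in Met-high samples. Only Met-low replicate 2 was well above background. The scaled log2 signals overlapped, since Met-low replicate 1, at -5.75, lay below Met-high replicate 1, at -5.03. A floor was set for each Met-high array, the dimmest signal flagged well above background or the signal of the probe itself if higher. Against it the mean of both Met-low arrays was 1.15-fold higher, although Met-low replicate 1 was not well above background. Some probes lay above this floor without being flagged, so the value is not a strict lower bound.

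Klf13, which regulates the chemokine gene Ccl5 in T cells, was the 1 detected member whose populations overlapped. Its intensity was 1258 and 1197 in Met-low and 935 and 902 in Met-high samples, and the scaled log2 signals were 0.42 and -0.15 against 0.12 and -0.30. The log2 ratio was -0.22 ± 0.27 (SE, 95% interval -0.89 to 0.45, limma adjusted p = 0.631). Without Met-high replicate 2 it was -0.0078 (limma adjusted p = 0.994), and without Met-low replicate 1 it was 0.065.

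Klf3, the member that recruits CtBP, is a repressor in red blood cells, B cells and fat. It was bright in both populations, with intensities of 3841 and 4825 in Met-low and of 2841 and 2775 in Met-high samples. The populations did not overlap on the log2 scale, at 2.03 and 1.86 against 1.73 and 1.32, though the gap between them was smaller than the difference between the Met-high arrays. The log2 ratio was -0.42 ± 0.20 (SE, 95% interval -0.93 to 0.09, limma adjusted p = 0.260). It was -0.22 without Met-high replicate 2 (limma adjusted p = 0.715).

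**Figure D2:**
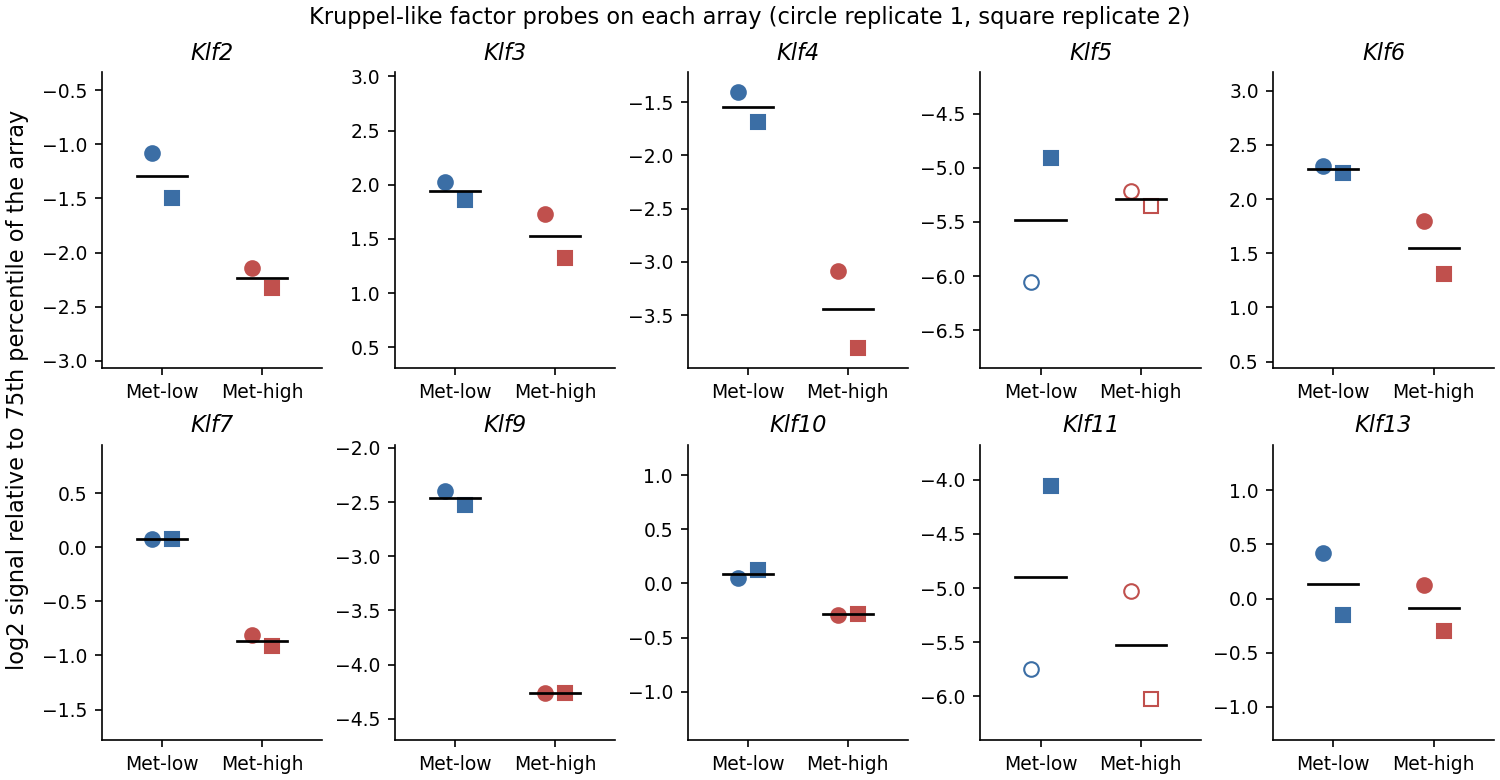
Log2 signal of each member (the 75th percentile of an array is 0), with circles for replicate 1, squares for replicate 2, blue for Met-low, red for Met-high, open symbols where the probe was not well above background and a line at the mean of each population. The populations are clearly apart for Klf4, Klf9, Klf7 and Klf2 and overlap for Klf13, and 3 of the 4 symbols are open for Klf5 and Klf11.

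The order of the differences was Klf4, Klf9, Klf2, Klf7, Klf6, Klf3, Klf10 and Klf13. The 95% interval of Klf4 overlapped those of Klf9, Klf2, Klf7 and Klf6, and those of Klf9 and Klf2 overlapped slightly. The intervals of Klf2, Klf7, Klf6, Klf3, Klf10 and Klf13 all overlapped each other. Differences between members were not tested, so the order is a description only. The interval of Klf9 lay wholly below those of Klf7, Klf6, Klf3, Klf10 and Klf13. With a normexp background correction, however, the ratios of Klf9 and Klf7 were close, at -0.98 and -0.88. Across 17 ways of processing, the reported one included, in which the replicate number was not used as a block, the ratio of Klf4 ranged from -2.26 to -1.26 and it was called in 13, Klf9 ranged from -1.95 to -0.98 and was called in 15, and Klf7 ranged from -1.09 to -0.88 and was called in 10. Klf2, Klf3, Klf6, Klf10 and Klf13 were called in 0 of the 17.

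**Figure D3:**
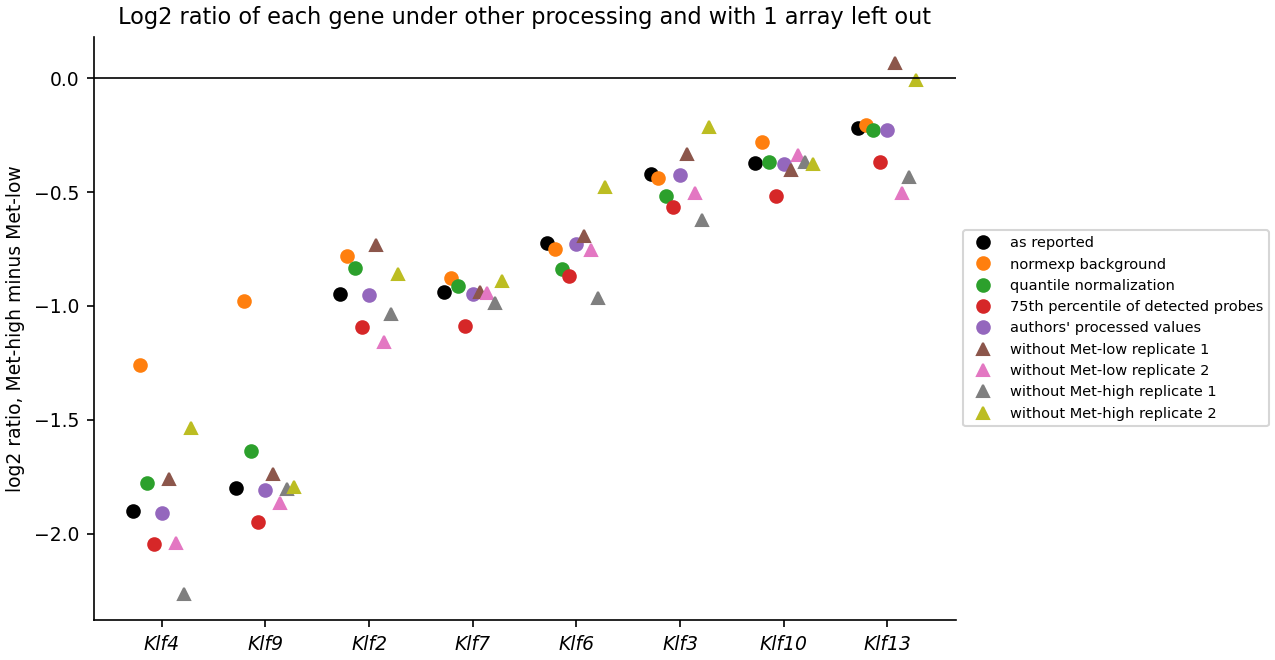
Log2 ratio of Met-high minus Met-low cells for each of the 8 detected members as reported (black), with other background correction or scaling (circles) and with 1 array left out (triangles). Klf4 and Klf9 keep the largest differences with each array left out, the normexp values of both are nearer to 0, and Klf13 crosses 0 without Met-low replicate 1.

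The rest of the family was then examined to see whether the lower signals extended to it. Members and lists were chosen with earlier results of these data known, so a contrast between them may reflect how the family was divided. The 16 other Klf and Sp genes all had a probe, and 7 were detected (well above background in both samples of a population). Of these 0 were called in either direction, against 3.78% of all genes called lower and 1.91% higher. Their median log2 ratio was 0.35, and 6 of the 7 ratios were above 0, as were those of 7108 of all 11943 genes. The median was 0.17 without Met-low replicate 2, 0.21 with scaling to the detected probes and 0.15 over all 16 with no filter on dim probes. Klf16, another factor that recruits Sin3, had intensities of 410 and 641 in Met-low and of 658 and 919 in Met-high samples. On the scaled log2 signals both Met-high samples lay above both Met-low samples, and the ratio of 0.80 ± 0.16 (SE, 95% interval 0.39 to 1.21) did not pass the test (limma adjusted p = 0.0558).

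Sp3, which binds the same GC boxes as the ubiquitous activator Sp1, was the 1 detected gene of this list with a lower mean, at a log2 ratio of -0.58 ± 0.16 (SE, limma adjusted p = 0.108). Sp1 had a log2 ratio of 0.35 and Klf15 of 0.32, neither of which passed. Klf1, the erythroid factor, Klf8 and Klf14 did not exceed background clearly on a single array. Klf12, a CtBP-recruiting repressor, was detected on 1 of 2 Met-low arrays and on 0 of 2 Met-high arrays. Against the floor used for Klf11 its Met-low mean was 1.53-fold higher. This mean includes Met-low replicate 1, which was not well above background, and the value is not a strict lower bound.

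**Figure D4:**
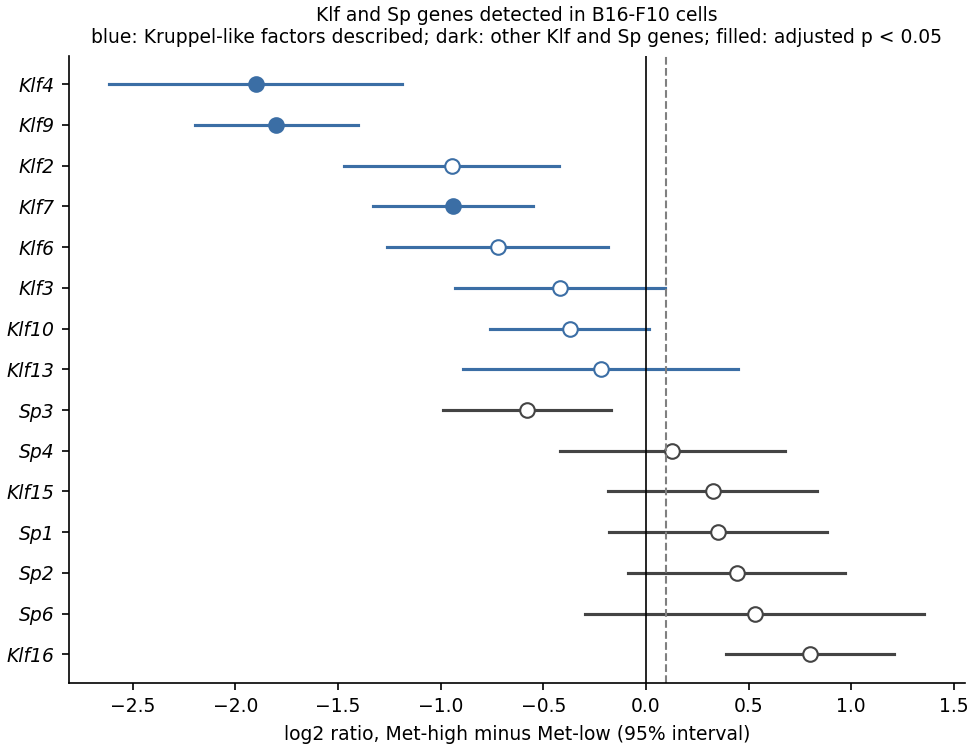
Log2 ratio of Met-high minus Met-low cells with its 95% interval for the 8 detected members (blue) and the 7 other detected Klf and Sp genes (dark), with filled symbols at a limma adjusted p under 0.05, a solid line at 0 and a dashed line at the median of all genes. Filled symbols are seen only for Klf4, Klf9 and Klf7, and Klf16 lies farthest to the right at 0.80.

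Among partners of the Kruppel-like factors, Fbxw7 was lower in Met-high cells. Of 14 genes for cofactors and for ubiquitin ligases that turn these factors over, all were detected. Of these, 1 was called lower and 0 higher, against 3.78% and 1.91% of all genes, and the median log2 ratio was 0.06. This median turned to -0.12 without Met-low replicate 2, to -0.15 without Met-high replicate 1 and to -0.08 with scaling to the detected probes. The gene called was Fbxw7, the substrate receptor of a ubiquitin ligase whose known substrates include Klf2 and Klf5, with intensities of 825 and 1284 in Met-low and of 390 and 544 in Met-high samples. It fell, at a log2 ratio of -0.96 ± 0.16 (SE, limma adjusted p = 0.0364), and a dimmer second probe gave -0.87. With every probe tested by itself, neither Fbxw7 probe passed (limma adjusted p = 0.0631 and 0.0961). The CtBP genes and Sin3a were at 0.16 (Ctbp1), 0.32 (Ctbp2) and 0.43 (Sin3a), and the acetyltransferase gene Ep300 was at -0.47, none of which passed.

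Of 24 genes described elsewhere as targets of one or another Kruppel-like factor, 16 were detected. Of these, 3 fell and 1 rose, against 3.78% and 1.91% of all genes. The median log2 ratio was -0.15 (-0.26 with the mean of probes and -0.29 with scaling to the detected probes). Cdkn1a, which encodes p21 and is activated by Klf4 and Klf6 in other cells, had intensities of 15046 and 18154 in Met-low and of 3928 and 6284 in Met-high samples, a log2 ratio of -1.54 ± 0.19 (SE, limma adjusted p = 0.0182). A dimmer second probe of Cdkn1a gave -2.73, with its Met-high log2 signals far apart at -1.89 and -3.58. Pdgfa, a growth factor gene with GC boxes known to bind this family, went from 4316 and 5678 to 1059 and 899, a log2 ratio of -2.14 ± 0.24 (SE, limma adjusted p = 0.0147), and its second probe gave -2.14 as well.

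Ccl5, the chemokine gene regulated by Klf13 in T cells, had a log2 ratio of -1.79 ± 0.31 (SE, limma adjusted p = 0.0394). Lgals3, which encodes the sugar-binding protein galectin-3, was the 1 gene of the list that rose, from 4219 and 10866 in Met-low to 23087 and 30281 in Met-high samples, a log2 ratio of 2.16 ± 0.31 (SE, limma adjusted p = 0.0242). With every probe tested by itself, Ccl5 (limma adjusted p = 0.0732) and Lgals3 (0.0507) did not pass, while the brighter probes of Cdkn1a (0.0392) and Pdgfa (0.0332) did. Ccnd2, a G1 cyclin gene, had a log2 ratio of -1.28 and did not pass (limma adjusted p = 0.0556). Whether any of these genes depends on a Kruppel-like factor in these cells was not tested.

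In the lists of regulators upstream of the family 0 genes were called, where 3.78% of all genes were called lower and 1.91% higher. At these shares a list of 8 genes may well hold 0 calls. Of 9 genes of the Erk5 kinase, Mef2 and Foxo group, 8 were detected and 0 were called. They act on Klf2 and Klf4 in endothelial cells and lymphocytes. For 6 of the 8 the Met-high mean was the higher one, as it was for 7108 of all 11943 genes. The median log2 ratio was 0.51, and it was 0.31 without Met-high replicate 1 and 0.29 with the mean of probes. Mapk7, which encodes Erk5, had a log2 ratio of 0.47 and its kinase gene Map2k5 of 0.67. The brighter probe of Mef2a had a log2 ratio of 0.90 (limma adjusted p = 0.0954), while a dimmer probe of the same gene gave -0.68, so the probes of Mef2a disagreed in direction.

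Of 8 genes of the glucocorticoid receptor and its classic targets, the route by which Klf9 is induced in many tissues, all 8 were tested and 0 were called, with 5 lower and 3 higher means and a median of -0.07. With 1 array left out it ranged from -0.25 (Met-low replicate 2 left out) to 0.11 (Met-low replicate 1 left out), also changing sign when Met-high replicate 2 was dropped (0.03), and it was -0.12 with quantile normalization and -0.22 with scaling to the detected probes. Without Met-high replicate 1 it was -0.17. The receptor gene Nr3c1 had a log2 ratio of -0.60 (limma adjusted p = 0.0971), and a dimmer second probe gave -0.46. On this second probe the populations overlapped, with log2 signals of -2.06 and -3.77 in Met-low and -1.80 and -4.94 in Met-high samples. Tsc22d3, which encodes the leucine zipper protein GILZ, had a log2 ratio of -0.63 (limma adjusted p = 0.0808). Fkbp5, another target, lay on the other side at 0.76 (limma adjusted p = 0.0610), so these targets did not share a direction. Zbtb16 was dim, detected on both Met-high arrays and on 0 Met-low arrays, and did not pass (limma adjusted p = 0.185). Against a floor set as for Klf11, here for the Met-low arrays, the Met-high mean of Zbtb16 was 1.56-fold higher, which is not a strict lower bound.

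**Figure D5:**
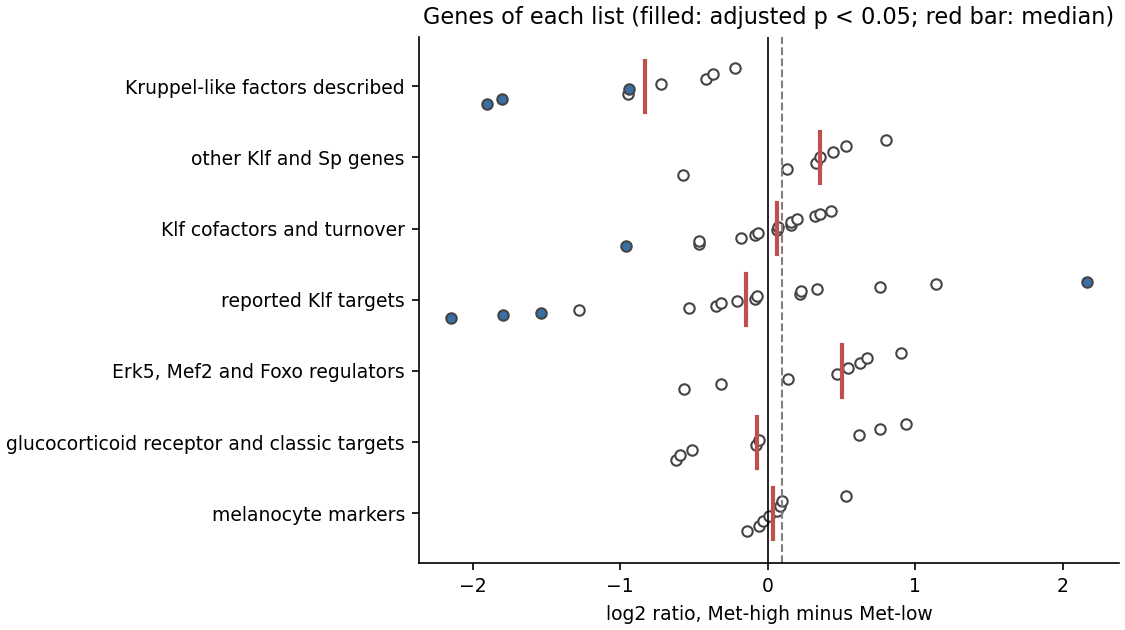
Log2 ratio of Met-high minus Met-low cells for the detected genes of each list, with filled symbols at a limma adjusted p under 0.05, a red bar at the median of each list and a dashed line at the median of all genes. The median of the Kruppel-like factors described, -0.83, lies left of 0, that of the other Klf and Sp genes, 0.35, lies right of 0, and filled symbols on both sides are seen only among the reported targets.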

How the data were processed

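Gene expression was measured on 4 arrays of B16-F10 cells, 2 Met-low and 2 Met-high. The authors deposited the scanner output of each array, which holds for every spot a Cy3 intensity, linear and already corrected for background, and several flags. The labels name version 10.7.3.1 of Agilent Feature Extraction and the file headers 11.0.1.1. The authors also deposited processed log2 values, scaled to the 75th percentile of each array and centred on the median of each probe, which were used as an alternative.

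After a floor of 0.01, which changed 0 spots, log2 intensities were expressed relative to the 75th percentile of the array over its 43020 spots other than controls. Spots flagged as outliers, 207 to 232 per array, were left out. Of 39429 probes, 27427 matched a symbol in the mouse RefSeq table (GRCm38.p6, used for names) by accession. The probe with the highest mean was used per gene. A gene was kept if both arrays of 1 or both populations had it well above background and every array gave a value, which left 11943 genes. The comparison used limma 3.58.1 in R 4.3.3 (lmFit, eBayes, two-sided), and p-values were adjusted by Benjamini-Hochberg over these genes, with 0.05 as the threshold. The fit was tested on simulated data. Arrays of a population were independently prepared samples, whose relation beyond that is not stated. A permutation of 2 arrays against 2 has too few splits to pass 0.05. All arrays shared 1 slide and 1 scan, so position on the slide and population cannot be told apart.

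All members are named. Of a list, the genes called and up to 3 others are named, and Klf1, Klf8, Klf12, Klf14, Klf15, Ep300 and Zbtb16 were added after their values were seen. The members, the lists and the alternatives were chosen with earlier results of these data known. Figures were made with Python 3.11.15 and matplotlib 3.10.9.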

Additional observations from a re-analysis of the deposited data

How the results depend on the processing

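All 8 detected members kept a lower mean in Met-high cells under every alternative except Klf13 without Met-low replicate 1 (0.065, and -0.51 without Met-low replicate 2). Over 136 pairs of a member and an alternative, 120 kept direction and side of the threshold, 13 lost a call, 2 gained one and 1, that of Klf13, changed sign without a call. The count of members called lower was 3 and became 0 with no filter on dim probes, 1 with every probe tested by itself, 5 with the replicate block, 0 by the methods' t-test and 1 to 2 with 1 array left out. It was 1 without Met-low replicate 1, where only Klf9 passed. Members more than 2-fold lower, 2 as reported, were 1 with normexp and 4 with scaling to the detected probes, which moved the median of all genes from 0.10 to -0.05. Over all genes, 451 were called lower, against 7 with no filter on dim probes, 1575 with the replicate block, 0 by the methods' t-test and 388 to 539 with 1 array left out. The 228 called higher became 138 with scaling to detected probes, 0 with no filter, 110 with every probe, 1962 with the replicate block, 395 with a mean-variance trend, 1 by the methods' t-test and 109 (without Met-low replicate 1) to 400 (without Met-high replicate 1) with 1 array left out. The methods name a t-test for comparisons between groups in general, while array genes were selected there by a 2-fold difference. Applied here to each gene, this t-test called 0 members after Benjamini-Hochberg adjustment. At an unadjusted p under 0.05, 4 of 8 members were lower by it, against 5 by limma, and 0 were higher by either. Over all 11943 genes at this threshold, 944 were lower and 1265 higher by the t-test, and 1418 were lower and 1709 higher by limma. A population reduced to 1 array took its spread from the other population. Samples with the same replicate number deviated together (r = 0.539 across 11943 genes, which are not independent), but 2 numbers do not show that they pair the samples. With the replicate block, Klf2 (limma adjusted p = 0.0130) and Klf6 (0.0300) were called as well. The cause of these shifts was not tested. Dim signal limits Klf5 and Klf11 most, and Klf9 in Met-high cells.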
